A study of Mus musculus with 12 samples.

Results

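The Schlafen genes Slfn1, Slfn2, Slfn3, Slfn4, Slfn5, Slfn8 and Slfn9 form a cluster on mouse chromosome 11 and were followed through 4 groups of granulocyte-monocyte progenitors (GMP), with and without the transcription factor RUNX1. They were found as the probes that carry one of these 7 names in the scanner files: 10 probes of 39429 on the array, spread from 82765536 to 83028490 on chromosome 11 (mm9). Of these, 8 probes and 6 genes could be tested among 17905 genes. Slfn1 could not, because its probe was not well above background on every array of any group.

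The cells were sorted from bone marrow and their total RNA was hybridised to 12 one-colour Cy3 arrays. The wt group (4 arrays) came from Runx1+/+-Tg(vav-Cre) mice and the ko group (4 arrays) from Runx1fl/fl-Tg(vav-Cre) mice, so that both carry Cre recombinase under the vav promoter, which is active across blood cells. The ERt2 group (2 arrays) and the RUNX1-ERt2 group (2 arrays) were GMP of transplanted mice. Their donor marrow was Runx1fl/fl-Tg(vav-Cre), taken on day 3 after 150 mg/kg 5-fluorouracil, and had been infected with MIG retrovirus carrying GFP together with either ERt2, a tamoxifen-binding receptor domain, or RUNX1 fused to it. The recipients had been lethally irradiated. After 6 weeks tamoxifen was injected at 49.5 μg per g body weight on 3 consecutive days, marrow was taken 24 h later, and viable GFP+ GMP were sorted. The sample labels name tamoxifen for all 4 transplanted samples, whereas the protocol speaks of only some of the mice. The labels give neither ages nor whether replicates came from separate animals, so the p-values rest on a spread that may in part be technical.

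Schlafen genes take their name from the German verb for sleeping, after the growth arrest that the first of them caused in thymocytes. In the mouse, Slfn1 and Slfn2 encode short proteins, Slfn3 and Slfn4 proteins of intermediate length, and Slfn5, Slfn8 and Slfn9 long ones with a helicase-like region. Several are induced by type I interferon, a cytokine that engages the receptor chains IFNAR1 and IFNAR2 and acts through JAK kinases and transcription factors, among them IRF9, on interferon-stimulated response elements in promoters. In blood cells the family is best known from Slfn2, whose loss takes T cells and monocytes out of quiescence, and from Slfn4, an interferon-induced gene of macrophages and other myeloid cells.

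Values below are log2 processed signal minus the 75th percentile of the same array, so that 0 is the level of that percentile, and a difference of 1 is a doubling. Levels of separate probes are not compared with each other. Differences come from limma, with p-values adjusted over all genes tested and a threshold of 0.05. For wt and ko, slide 1 held replicates 1 and 2, and slide 2 held replicates 3 and 4; the fit has a term for these slides. The ERt2 and RUNX1-ERt2 arrays each lay on a slide of their own, so slide and group cannot be told apart there. Each array had 53.5% to 63.2% of its probes well above background, and none of the 15 GMP markers looked up, among them Mpo and Ctsg, was below background throughout a group. The brighter Runx1 probe stood at 1.71 ± 0.54 (SD, n = 4) in wt and 3.40 ± 0.58 (n = 4) in ko, a difference of 1.69 ± 0.17 (SE, adjusted p = 0.00025). It stood at 3.22 ± 0.11 (n = 2) in ERt2 and 2.13 ± 0.29 (n = 2) in RUNX1-ERt2, a difference of -1.09 ± 0.24 (adjusted p = 0.0123). The Runx1 signal was thus higher in the group labelled as deleted and lower in the group labelled as carrying the RUNX1 fusion. The labels and files place the probe neither relative to the deleted segment nor to the part of RUNX1 in the fusion, so it checks neither label, and directions below rest on the labels alone.

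Of the 6 Schlafen genes tested, Slfn8 rose and Slfn3 fell in ko against wt. In RUNX1-ERt2 against ERt2, Slfn8 fell and 0 members rose in limma's test, with Slfn9 the 1 member higher at an unadjusted p under 0.05. The background is wide: 25.3% of all genes tested passed the threshold in ko against wt, 11.5% of them higher and 13.8% lower, and 19.1% passed in RUNX1-ERt2 against ERt2, 10.2% higher and 8.87% lower. The count of members is near that background in both comparisons. The test of whether the effect of RUNX1 differs between transplanted and native cells passed for 0 of 6 members (1 at an unadjusted p under 0.05, Slfn9) and for 18.2% of all genes, 9.42% higher and 8.75% lower. The members differed in direction: Slfn8 was higher in ko and lower in RUNX1-ERt2 than in the respective controls, and Slfn3 was lower in ko. Slfn2, Slfn4, Slfn5 and Slfn9 did not pass the test in either comparison. With replicate number as a block in place of the slide term, 2 members passed upwards in ko against wt. In RUNX1-ERt2 against ERt2, 1 passed upwards and 2 downwards. Slfn4 and Slfn9 are the genes added.

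**Figure D1:**
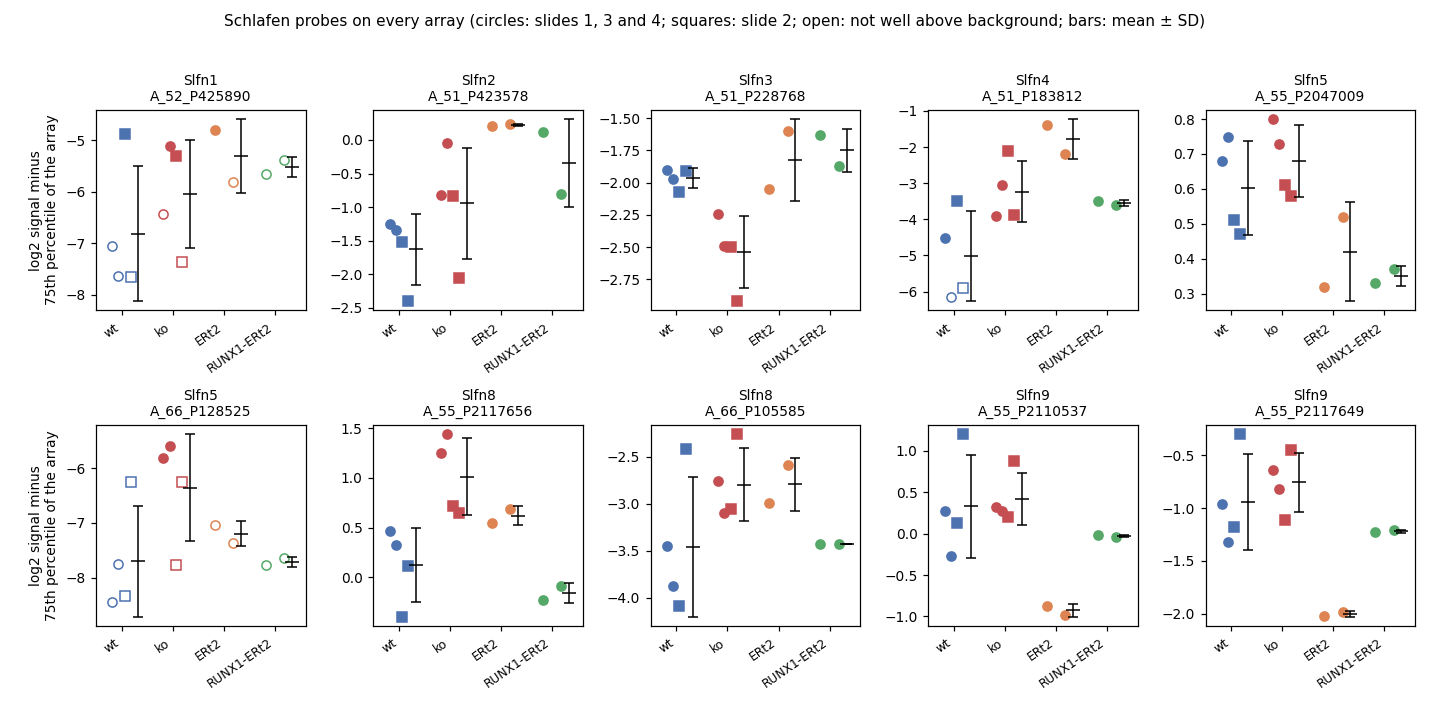
Level of each of the 10 Schlafen probes on every array, as log2 processed signal minus the 75th percentile of the array (vertical axis, with its own range in each panel), by group (horizontal axis). Points are arrays, squares are those of slide 2, open points are not well above background, and the bars are mean ± SD. Slfn8 (probe A_55_P2117656) sits at 0.65 or more on all 4 ko arrays and at 0.46 or less on all 4 wt arrays.

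**Figure D2:**
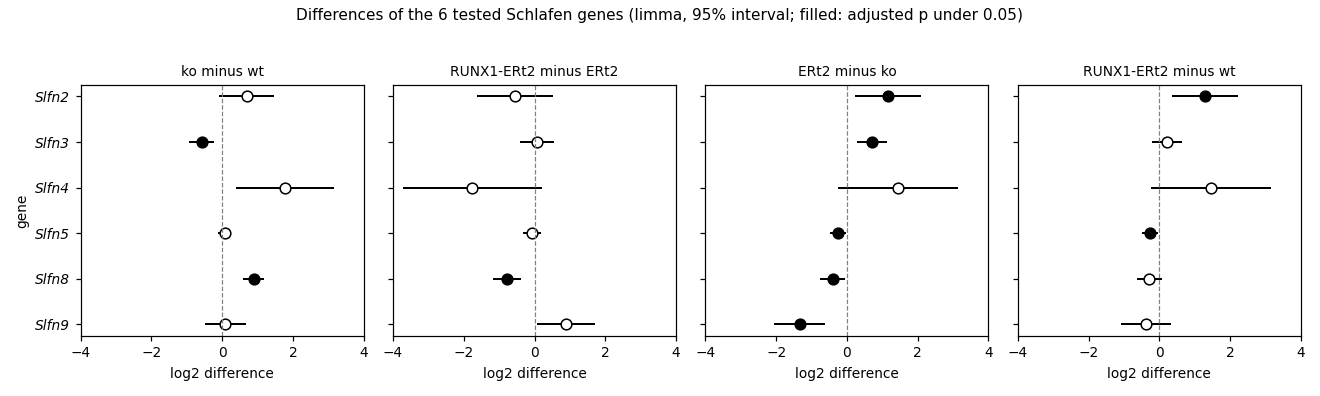
Difference of the 6 tested Schlafen genes in 4 comparisons (horizontal axis, log2) with its 95% confidence interval from limma; filled points have an adjusted p under 0.05. Slfn8 stands at 0.89 in ko minus wt and at -0.78 in RUNX1-ERt2 minus ERt2, while the interval of Slfn4 is the widest in each panel.

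Slfn8 encodes a long Schlafen protein and was measured by a pair of probes. The first, at chr11:82815804-82815863 on the minus strand (mm9), represents the gene, since it was the brighter one. It is shown because a run of 19 bases in it, in capitals, also occurs in a probe for Slfn9, the neighbouring long member. The bases just before this run are alike in both probes too, with few mismatches. The next longest exact run shared by any pair of Schlafen probes was 9 bases. Whether the Slfn8 probe also binds Slfn9 RNA was not tested.
Slfn8 probe A_55_P2117656: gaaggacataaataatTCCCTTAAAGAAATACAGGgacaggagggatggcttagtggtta
Slfn9 probe A_55_P2117649: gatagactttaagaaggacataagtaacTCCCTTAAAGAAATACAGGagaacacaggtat

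The Slfn8 level was 0.46, 0.32, -0.40 and 0.11 on the wt arrays. On the ko arrays it was 1.25, 1.44, 0.72 and 0.65. Every ko array lay above every wt array; the groups did not overlap for 23.2% of all genes tested. The difference was 0.89 ± 0.12 (SE; 95% confidence interval 0.63 to 1.16; adjusted p = 0.000997), or 1.86-fold higher in ko. The slides gave 0.96 (slide 1) and 0.83 (slide 2). Fitted alone, slide 1 passed (adjusted p = 0.0169) and slide 2 did not (0.201). Leaving out any single array gave 0.80 to 1.01 with an adjusted p of at most 0.00541.

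In the transplanted cells Slfn8 stood at 0.55 and 0.69 with ERt2 alone. With RUNX1-ERt2 it stood at -0.23 and -0.09, below both ERt2 arrays and below 3 of the 4 wt arrays. Of all genes tested, 58.9% had ERt2 and RUNX1-ERt2 groups that did not overlap. The fall was -0.78 ± 0.16 (95% interval -1.15 to -0.41; adjusted p = 0.0106), 1.72-fold. The call was lost when ERt2 replicate 2 (adjusted p = 0.0632) or RUNX1-ERt2 replicate 1 (0.062) was left out, with no slide term (0.142), with only the arrays compared (0.0506) and with the mean of the Slfn8 probes (0.138), with a difference of -0.71 to -0.78 in each. The effect of RUNX1 in transplanted cells (RUNX1-ERt2 minus ERt2) minus that in native cells (wt minus ko) was 0.11 ± 0.20 (95% interval -0.34 to 0.57; adjusted p = 0.748).

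The order of the Slfn8 means was ko at 1.01 ± 0.39, ERt2 at 0.62 ± 0.10, wt at 0.12 ± 0.38 and RUNX1-ERt2 at -0.16 ± 0.10 (SD; n = 4, 2, 4 and 2). Arrays of ERt2 and wt did not overlap, while the ranges of ko and ERt2, and of wt and RUNX1-ERt2, did. ERt2 differed from ko by -0.40 ± 0.14 (adjusted p = 0.0397), a call that ends with the array median (-0.20, adjusted p = 0.231), the series matrix (-0.22, 0.217), the mean of probes (-0.20, 0.541) or no slide term (0.249) and on leaving out wt replicate 1 or 2, any ko array or either ERt2 array, with -0.33 to -0.46 and a highest adjusted p of 0.191. Under the replicate block it was -0.69 (0.00634). That block replaces the slide term, and transplanted arrays bear only numbers 1 and 2, which in wt and ko lie on slide 1. Blocked differences between transplanted and native cells therefore lean on those slide 1 arrays. RUNX1-ERt2 minus wt was -0.28 ± 0.14 (adjusted p = 0.135), or -0.58 (0.016) with replicate number as a block. It was -0.37 (0.0477) when wt replicate 3 and -0.17 (0.23) when wt replicate 4 was left out, -0.15 (0.403) with the array median, -0.17 (0.351) in the series matrix and -0.12 (0.722) with the mean of probes.

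The second Slfn8 probe, at chr11:82830985-82831044, was dimmer. It stood at -3.45, -3.88, -4.09 and -2.42 in wt. In ko it stood at -2.76, -3.10, -3.06 and -2.26. The ERt2 values were -2.99 and -2.59, and both RUNX1-ERt2 arrays were at -3.43. The direction was that of the first probe in both comparisons, but wt replicate 4 overlapped the ko arrays, and neither 0.67 ± 0.33 (adjusted p = 0.178) nor -0.64 ± 0.47 (0.412) passed in a fit over all probes. For ERt2 minus ko this probe gave 0.00 ± 0.41 (adjusted p = 0.996), and for RUNX1-ERt2 minus wt 0.03 ± 0.41 (0.956). Within groups this probe followed the Slfn9 probes, with Pearson correlations of 0.90 and 0.93 over the 12 arrays, and not the first Slfn8 probe, at 0.01; the arrays share RNA and slides, and this is a description.

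Slfn9, a further long member, was measured by probes at chr11:82793812-82793871, which represents the gene, and chr11:82793914-82793973, both on the minus strand. The first stood at 0.27, -0.27, 0.13 and 1.20 in wt. In ko it stood at 0.32, 0.27, 0.20 and 0.88. The groups overlapped and shared a high replicate 4, and the difference of 0.08 ± 0.25 (95% interval -0.47 to 0.64; adjusted p = 0.836) did not pass; slide 1 gave 0.29 and slide 2 gave -0.12.

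In the transplanted cells Slfn9 stood at -0.87 and -0.98 with ERt2 and at -0.02 and -0.04 with RUNX1-ERt2. The RUNX1-ERt2 arrays were the higher ones, by 0.89 ± 0.35 (95% interval 0.10 to 1.68); 58.9% of all genes tested had groups that did not overlap here. This did not pass the test (adjusted p = 0.114), and passed under the replicate block (0.0181), with only the arrays compared (0.0344) and when wt replicate 4 was left out (0.0314). The second probe gave 0.78 ± 0.31 (adjusted p = 0.117). The effect of RUNX1 in transplanted minus native cells was 0.98 ± 0.43 (adjusted p = 0.15).

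Slfn9 fell in ERt2 against ko. The difference was -1.34 ± 0.30 (adjusted p = 0.0046), 2.54-fold, and -1.24 ± 0.26 (0.00343) for the second probe, and it passed with any single array left out (highest adjusted p = 0.0374). In this comparison 5 members passed, 2 higher and 3 lower; of all genes 56.9% passed, 30.2% higher and 26.7% lower, and 62.9% had groups that did not overlap. ERt2 cells differ from ko cells by 5-fluorouracil, infection, transplantation, tamoxifen, the GFP sort and the slide, and these cannot be told apart. RUNX1-ERt2 cells differ from wt cells by all of these, the Runx1 genotype and the RUNX1 fusion, which cannot be told apart for any member. The order of the Slfn9 means was ko at 0.42 ± 0.31, wt at 0.33 ± 0.62, RUNX1-ERt2 at -0.03 ± 0.01 and ERt2 at -0.92 ± 0.08 (SD). Only the last step separated all arrays.

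Slfn5, the remaining long member, is known as a nuclear protein induced by interferon. The probe that represents it, at chr11:82765536-82765595 on the plus strand, is printed because its sequence was found inside the RefSeq promoter window of Slfn5, from base 68 to base 9 before the annotated start, and not in the window of any other gene; no other Schlafen probe was found in a promoter window. The files assign it to an Ensembl transcript, and the other Slfn5 probe to a RefSeq transcript.
Slfn5 probe A_55_P2047009: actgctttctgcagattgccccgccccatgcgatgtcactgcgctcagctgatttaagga

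This probe was nearly level, at 0.68, 0.75, 0.51 and 0.47 in wt and 0.80, 0.73, 0.61 and 0.58 in ko. With ERt2 it was 0.32 and 0.52, and with RUNX1-ERt2 0.33 and 0.37. The wt and ko arrays overlapped, as did the ERt2 and RUNX1-ERt2 arrays, while ERt2 lay below ko and RUNX1-ERt2 below wt. Of all genes tested, 62.9% did not overlap between ERt2 and ko, and 55.9% between RUNX1-ERt2 and wt. The differences were 0.07 ± 0.07 in ko minus wt (95% interval -0.09 to 0.23; adjusted p = 0.487) and -0.07 ± 0.10 in RUNX1-ERt2 minus ERt2 (-0.29 to 0.16; 0.703). Slfn5 was lower in ERt2 than in ko by -0.26 ± 0.09 (adjusted p = 0.0299) and lower in RUNX1-ERt2 than in wt by -0.25 ± 0.09 (0.0387), but with the array median these were -0.06 (0.71) and -0.12 (0.504). The first call also ended on leaving out ko replicate 1, 3 or 4 or ERt2 replicate 1 (-0.16 to -0.26), and the second on leaving out wt replicate 1, 2 or 3, ko replicate 1, 2 or 4 or either RUNX1-ERt2 array (-0.23 to -0.27). The median of all genes moved from 0.06 to 0.25 in ERt2 minus ko under that scaling. The other Slfn5 probe, at chr11:82774907-82774966, was well above background on 2 of 12 arrays only, ko replicates 1 and 2, at -5.82 and -5.60, and was not tested. Values given for Slfn5 are those of the first probe alone, and whether it measures the RefSeq transcript was not tested.

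Promoter windows of the long members carry letters of the elements named above. RefSeq holds a window of 250 bases before to 50 after the start for all 7 members, 8 windows in all, since Slfn8 has a pair that overlaps (GRCm38.p6). On both strands they were searched for the core of the interferon-stimulated response element, GAAA followed by any 2 bases and GAAA again, and for TGTGGT, the core that RUNX proteins bind; neither set of matches overlaps the other. The first occurred in 3 of the 7 members, Slfn5, Slfn8 and Slfn9, and in 3.44% of all 32851 windows. The second occurred in 2 members, Slfn8 and Slfn1, and in 16.8% of all windows. The windows of the long members are shown, with matches in capitals: Slfn5 at chr11:82951852-82952151 on the plus strand, Slfn9 at chr11:82991781-82992080 and Slfn8 at chr11:83020761-83021060 on the minus strand.
Slfn5 promoter: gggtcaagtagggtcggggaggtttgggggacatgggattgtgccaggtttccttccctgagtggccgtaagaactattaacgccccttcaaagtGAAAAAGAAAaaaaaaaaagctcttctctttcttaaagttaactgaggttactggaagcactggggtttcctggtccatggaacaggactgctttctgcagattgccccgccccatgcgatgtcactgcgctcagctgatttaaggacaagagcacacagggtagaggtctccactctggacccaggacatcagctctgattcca
Slfn9 promoter: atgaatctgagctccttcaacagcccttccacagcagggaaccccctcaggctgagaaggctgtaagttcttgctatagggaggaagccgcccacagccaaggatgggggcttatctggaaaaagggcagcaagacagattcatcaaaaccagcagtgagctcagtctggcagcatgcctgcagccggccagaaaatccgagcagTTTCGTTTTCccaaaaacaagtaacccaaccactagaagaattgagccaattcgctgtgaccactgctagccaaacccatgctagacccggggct
Slfn8 promoter: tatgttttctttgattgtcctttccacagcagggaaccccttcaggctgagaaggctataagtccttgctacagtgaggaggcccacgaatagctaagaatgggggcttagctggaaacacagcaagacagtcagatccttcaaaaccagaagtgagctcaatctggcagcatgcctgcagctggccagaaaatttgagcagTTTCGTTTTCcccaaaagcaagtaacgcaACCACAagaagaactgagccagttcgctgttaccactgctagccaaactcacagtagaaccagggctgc

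The Slfn8 and Slfn9 windows were alike: 246 of 295 aligned bases were identical (83.4%), against at most 66.1% for any other pair of members. Both hold the interferon element on the reverse strand, 48 to 39 bases before the start in Slfn8 and 45 to 36 in Slfn9. The RUNX letters stand 19 to 14 bases before the start in Slfn8; at the matching place of Slfn9 the substitution A237T, counted from 1 at the 5′ end of the Slfn8 window, falls within them, and Slfn9 has no match. In Slfn5 the interferon element stands 155 to 146 bases before the start, and in Slfn1 the RUNX letters stand 43 to 48 bases after it. A match is a description of these letters only.

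Slfn3 encodes a protein of intermediate length. Its probe, at chr11:83028431-83028490 on the plus strand, is shown as that of the one member that fell in ko.
Slfn3 probe A_51_P228768: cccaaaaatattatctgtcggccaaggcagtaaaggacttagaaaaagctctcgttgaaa

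Slfn3 stood at -1.90, -1.97, -2.07 and -1.91 in wt. In ko it stood at -2.24, -2.49, -2.50 and -2.92, below every wt array. The wt and ko groups did not overlap for 23.2% of all genes tested. The difference was -0.58 ± 0.14 (95% interval -0.90 to -0.26; adjusted p = 0.0182), 1.49-fold lower in ko; slide 1 gave -0.43 and slide 2 gave -0.72. The call was lost when ko replicate 2 (-0.56, adjusted p = 0.0513) or ko replicate 4 (-0.46, 0.0505) was left out and in the authors' series matrix (-0.56, 0.0504). Fitted alone, neither slide passed (adjusted p = 0.0726 on slide 1 and 0.223 on slide 2).

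In transplanted cells Slfn3 stood at -2.05 and -1.60 with ERt2 and at -1.63 and -1.87 with RUNX1-ERt2, which overlap. The difference was 0.07 ± 0.20 (95% interval -0.38 to 0.53; adjusted p = 0.849), and the effect of RUNX1 in transplanted minus native cells was -0.50 ± 0.25 (adjusted p = 0.195). Slfn3 was higher in ERt2 than in ko, by 0.71 ± 0.17 (adjusted p = 0.00686), and this ended without ERt2 replicate 2 (0.49, 0.0847). The order of the means was RUNX1-ERt2 at -1.75 ± 0.17, ERt2 at -1.83 ± 0.31, wt at -1.96 ± 0.08 and ko at -2.54 ± 0.28 (SD), and only wt and ko were separate neighbours.

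Slfn4, the other intermediate member, had the widest intervals of the 6 genes tested. Its probe, at chr11:83002974-83003033 on the plus strand, stood at -4.51, -6.16, -3.49 and -5.91 in wt, where replicates 2 and 4 were not well above background. In ko it stood at -3.90, -3.04, -2.11 and -3.89, well above background on all arrays. Only wt replicate 3 reached into the ko range. The difference was 1.78 ± 0.60 (95% interval 0.42 to 3.14), and since its adjusted p was 0.0594 it did not pass; it did under the replicate block (0.0135) and when wt replicate 3 was left out (2.28, adjusted p = 0.0249). With normexp background correction it was 0.32 (0.609). Slide 1 gave 1.86 and slide 2 gave 1.70.

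With ERt2, Slfn4 stood at -1.39 and -2.18, and with RUNX1-ERt2 at -3.49 and -3.60. The RUNX1-ERt2 arrays were lower, and ERt2 replicate 1 was the highest array of all. The difference of -1.76 ± 0.85 (95% interval -3.69 to 0.17) did not pass (adjusted p = 0.195), and passed under the replicate block (0.0497) and with only the arrays compared (0.0463), though not under a block that pairs each ERt2 array with the RUNX1-ERt2 array of the other number (0.0513). ERt2 minus ko was 1.45 ± 0.74 (adjusted p = 0.121) and RUNX1-ERt2 minus wt 1.47 ± 0.74 (0.134); with the block they were 1.73 (0.0185) and 1.75 (0.021). With normexp the second was 0.23 (0.781), and leaving out a single array gave 1.00 to 1.97, with a call when wt replicate 3 was left out (1.97, 0.0411).

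Slfn2, a short member and the one that keeps T cells quiescent, had a probe at chr11:82883791-82883850 on the plus strand. It stood at -1.25, -1.34, -1.52 and -2.40 in wt. In ko it stood at -0.82, -0.05, -0.84 and -2.05. Replicate 4 was the lowest in each group and the groups overlapped. The difference was 0.69 ± 0.33 (95% interval -0.06 to 1.43; adjusted p = 0.16), and the slides gave 0.86 (slide 1) and 0.52 (slide 2). With normexp it was 0.45 (0.331), and it passed under the block with the transplanted numbers crossed (0.69, 0.0348).

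Slfn2 had its highest means in the transplanted cells, at 0.21 and 0.23 with ERt2 and 0.12 and -0.80 with RUNX1-ERt2. All 4 of these arrays lay above all wt arrays, and 55.9% of all genes had RUNX1-ERt2 and wt groups that did not overlap. RUNX1-ERt2 minus ERt2 was -0.56 ± 0.47 (95% interval -1.61 to 0.49; adjusted p = 0.468); it was -1.02 (0.278) when RUNX1-ERt2 replicate 1 and -0.10 (0.936) when replicate 2 was left out. RUNX1-ERt2 minus wt was 1.29 ± 0.40 (adjusted p = 0.0274), in a comparison in which 46.1% of all genes passed, 21.9% higher and 24.1% lower, and ERt2 minus ko was 1.16 ± 0.40 (0.0343). In both comparisons the treatments, transplantation and slide differ together and cannot be told apart. Slfn2 was the 1 member higher and Slfn5 the 1 lower in RUNX1-ERt2 against wt; under the block 2 were lower, Slfn5 and Slfn8. Under the block the Slfn2 differences were 0.87 (0.0614) and 0.74 (0.0892). The first call also ended on leaving out wt replicate 1, 2 or 4 (1.14 to 1.27) or RUNX1-ERt2 replicate 1 (0.83, adjusted p = 0.227), and the second on leaving out ko replicate 1 or 4 or either ERt2 array (0.88 to 1.17).

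Slfn1, the other short member and the founder of the family, was at or near background. Its probe, at chr11:82935656-82935715 on the plus strand, was well above background on wt replicate 3 (-4.89), ko replicates 2 and 3 (-5.11 and -5.30) and ERt2 replicate 1 (-4.80), and on no other array. Its means ran from -6.81 ± 1.31 in wt to -5.31 ± 0.72 in ERt2 (SD), and most of these values are below background and have no order. Within groups its values correlated with those of Slfn4 (Pearson r = 0.87 over 12 arrays, both being dim). As most Slfn1 values are below background, nothing is concluded from this.

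Markers of other cell types differed between the groups as well, and are given as summed levels per array, in multiples of the 75th percentile. For 14 neutrophil markers the sum was 59.3 to 296 in wt, 34.7 to 295 in ko, 551 to 684 in ERt2 and 134 to 151 in RUNX1-ERt2, so that only ERt2, where the means of Slfn2 and Slfn4 were highest, lay above the other groups; none of the 14 was below background throughout a group. For 15 monocyte and macrophage markers it was 68.5 to 145, 35.1 to 81.0, 149 to 170 and 49.9 to 99.7, with 1 marker dim throughout RUNX1-ERt2. For 15 megakaryocyte and platelet markers it was 14.0 to 24.7, 70.3 to 95, 20.2 to 44.2 and 23.2 to 63.4, with ko above every other array. For 12 erythroid markers it was 30.9 to 67.8, 31.0 to 88.5, 91.4 to 163 and 139 to 185. The sum of 16 T and NK cell markers was 22.8 to 36.0 in wt and 10.3 to 15.5 in ko. It was 37.3 to 49.9 in ERt2 and 16.6 to 17.0 in RUNX1-ERt2. In these groups 2, 1, 5 and 5 of them were dim throughout. Nkg7 led this sum, with log2 means of 4.50, 3.12, 5.37 and 3.80, and no other marker had a mean above 0.73. In ERt2 against ko, 6 of the 13 tested fell and 1 rose (median -1.33). B lineage sums were 6.58 to 7.35, 4.97 to 7.55, 9.18 to 10.1 and 14.5 to 29.3, so RUNX1-ERt2 lay above the other groups. In RUNX1-ERt2 against ERt2, 2 of 9 B lineage markers rose and 1 fell. Stromal sums were 10.5 or less on all arrays.

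In ko against wt, where Slfn8 and Slfn3 were called, 8 of 14 megakaryocyte markers rose and 0 fell (10 and 0 unadjusted; median 1.97), 6 of 14 monocyte markers fell and 0 rose (6 and 0 unadjusted; median -0.31), 5 of 15 GMP markers fell and 1 rose (9 and 1 unadjusted), 1 of 14 neutrophil markers rose and 0 fell (2 and 0 unadjusted), and 4 of 12 erythroid markers rose and 1 fell. In RUNX1-ERt2 against ERt2, 7 GMP and 7 monocyte markers fell and 0 of either rose (0 unadjusted), 0 neutrophil markers passed (0 higher and 3 lower unadjusted), 2 erythroid markers rose and 0 fell (6 and 0 unadjusted), and 1 megakaryocyte marker rose and 2 fell. In ERt2 against ko, 7 neutrophil markers rose and 1 fell, 8 monocyte markers rose and 3 fell, 12 GMP markers rose and 8 megakaryocyte markers fell. In RUNX1-ERt2 against wt, 7 of 12 erythroid markers rose and 0 fell (8 and 0 unadjusted). Of 14 monocyte markers 0 rose and 8 fell (0 and 9 unadjusted; median -1.17). Of 15 GMP markers 3 rose and 4 fell, and of 14 megakaryocyte markers 3 rose and 1 fell. B lineage (2 up and 5 down of 9) and stromal markers (2 and 5 of 7) also moved both ways. Of 13 T and NK cell markers 0 rose and 4 fell, and of 14 neutrophil markers 1 rose and 0 fell. Of all genes, 11.5% rose and 13.8% fell in ko against wt, and 10.2% and 8.87% in RUNX1-ERt2 against ERt2. The shares were 30.2% and 26.7% in ERt2 against ko, and 21.9% and 24.1% in RUNX1-ERt2 against wt. The part of these markers in the Schlafen values was not tested. In such sorted bulk samples, fewer cells of a type and less RNA per cell cannot be told apart.

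Slfn10-ps, a pseudogene within the cluster that is no member here, also rose in ko: its probe, at chr11:82842116-82842175, stood at 0.05, -0.15, -0.40 and 0.30 in wt and at 0.91, 0.75, 0.85 and 1.07 in ko. The difference was 0.95 ± 0.15 (adjusted p = 0.00224). In RUNX1-ERt2 minus ERt2 it was -0.34 ± 0.21 (0.305). Slfn14 and Slfnl1 were well above background on 0 arrays.

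Interferon response genes were followed beside the family. Of 39 tested genes, 28 rose and 0 fell in ko against wt (32 and 2 at an unadjusted p under 0.05), against 11.5% and 13.8% of all genes. The median difference was 0.82 against -0.05 over all genes tested, and 18 of the 39 rose in a fit without the slide term. Oas3, an antiviral oligoadenylate synthase, rose by 2.36 ± 0.15 (adjusted p = 2.54e-05), Irf7, a transcription factor of the interferon response, by 1.80 ± 0.14 (7.27e-05), and Oasl2, a relative of Oas3, by 1.73 ± 0.13 (6.57e-05). In RUNX1-ERt2 against ERt2, 10 fell and 2 rose, against 8.87% and 10.2% of all genes, with a median of -0.40 against 0. Oas3 fell by 2.86 ± 0.21 (3.48e-05), Oas2 by 2.34 ± 0.33 (0.00142) and Sp100, a nuclear body protein, by 0.84 ± 0.15 (0.0044).

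The mean level of the interferon list per array was 0.22, 0.27, -0.46 and -0.06 in wt and 0.98, 1.28, 0.56 and 0.64 in ko. It was 0.32 and 0.58 in ERt2 and 0.13 and 0.07 in RUNX1-ERt2. As for Slfn8, ko lay above wt throughout, slide 2 lay below slide 1 within each of these groups, and RUNX1-ERt2 lay below ERt2. The count of 10 genes that fell was 4 without ERt2 replicate 2 or either RUNX1-ERt2 array, 5 without wt replicate 1 or 2, and 6 without ko replicate 4 or ERt2 replicate 1; it was 3 with normexp or only the arrays compared, 4 without the slide term and 5 with no filter on dim probes.

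**Figure D3:**
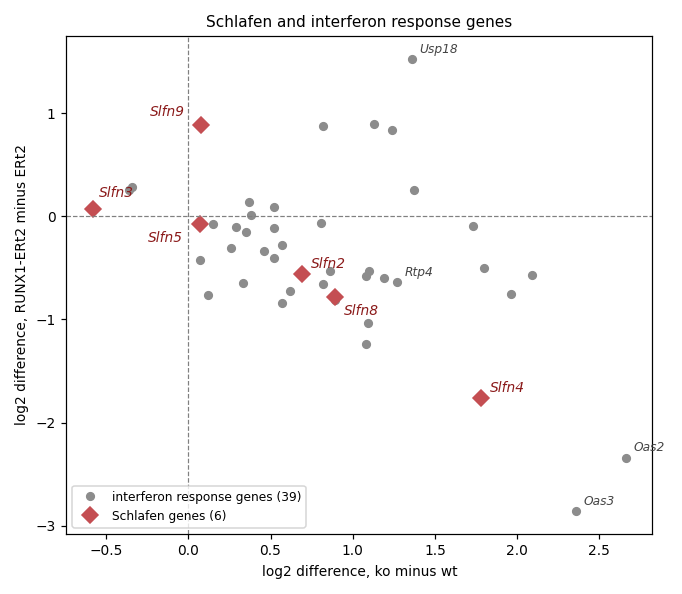
Differences of 39 interferon response genes (circles) and 6 Schlafen genes (diamonds), with ko minus wt on the horizontal and RUNX1-ERt2 minus ERt2 on the vertical axis (log2). Slfn8 (0.89, -0.78) lies among the interferon genes that are positive on the first and negative on the second axis. Slfn4 (1.78, -1.76), Slfn2 (0.69, -0.56) and Slfn5 (0.07, -0.07), which did not pass the test on either axis, lie in the same quadrant. Slfn3 (-0.58, 0.07) and Slfn9 (0.08, 0.89) lie outside it.

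Of 15 interferon receptor and signalling genes, 7 rose and 0 fell in ko (9 and 0 at an unadjusted p under 0.05, median 0.42). The shares of all genes were 11.5% and 13.8%. Among the 15, Usp18, which removes ISG15 and restrains the receptor, rose by 1.36 ± 0.21 (adjusted p = 0.00239). The JAK inhibitors Socs3 and Socs1 rose by 2.62 ± 0.42 (0.00275) and 0.73 ± 0.13 (0.00439). In RUNX1-ERt2 against ERt2, 4 fell and 2 rose (median -0.18), against 8.87% and 10.2% of all genes. The receptor chains Ifngr2, Ifngr1 and Ifnar1 fell by 2.15 ± 0.25 (0.000474), 0.83 ± 0.16 (0.00615) and 0.58 ± 0.11 (0.0054). Usp18 rose here too, by 1.53 ± 0.30 (0.00737), unlike Slfn8.

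Quiescence and proliferation, with which the family is linked, were followed in a pair of lists. Of 22 quiescence genes, 7 rose and 1 fell in ko (median 0.46): the transcription factor Foxo1 rose by 1.22 ± 0.08 (adjusted p = 2.88e-05), the antiproliferative Btg1 rose by 0.88 ± 0.11 (0.00095), and the cell cycle inhibitor Cdkn2c fell by 0.47 ± 0.07 (0.00232). In RUNX1-ERt2 against ERt2, 1 rose and 2 fell (median -0.03): Cdkn1a, which encodes p21, rose by 2.73 ± 0.37 (0.00113), and Btg1 and Foxo3 fell by 0.87 ± 0.16 (0.0058) and 0.90 ± 0.24 (0.031). Of 30 cell cycle genes, 0 rose and 17 fell in ko (0 and 25 at an unadjusted p under 0.05; median -0.53), among them Birc5 by 0.81 ± 0.14 (0.00441), Cdk1 by 0.79 ± 0.15 (0.00662) and Bub1 by 0.82 ± 0.16 (0.00773), all of mitosis. In RUNX1-ERt2, 2 rose and 0 fell (3 and 1 unadjusted, median 0.12). These were Cdk1, by 3.09 ± 0.22 (2.53e-05), and Cdc6, which licenses replication, by 1.34 ± 0.21 (0.00233). Of all genes, 25.3% passed in ko against wt and 19.1% in RUNX1-ERt2 against ERt2, where both lists had smaller shares.

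The genes most like each member over the 12 arrays, by Pearson correlation of log2 levels, differed from member to member. Slfn8 was most like the interferon-induced genes Ifi206 (0.98) and Rtp4 (0.97). Ifi206 rose by 2.07 ± 0.26 in ko (adjusted p = 0.000805) and fell by 1.39 ± 0.37 in RUNX1-ERt2 (0.0281), and Rtp4 rose by 1.27 ± 0.18 in ko (0.00137), with -0.64 ± 0.25 in RUNX1-ERt2 (0.111). Slfn3 was most like Ccdc167 and Cenpe (0.96 each), the latter a kinesin of mitotic chromosomes, which fell by 0.57 ± 0.14 in ko (0.0173). Slfn4 was most like the calcium-binding S100a6 (0.94) and the chromatin remodeller Chd7 (0.93), and Slfn2 like Ms4a6d (0.96) and Emilin1 (0.95). Slfn9 was most like Gm5833 (0.97) and the cholesterol exporter Abca1 (0.95), and Slfn5 like the histamine receptor Hrh4 (0.97) and Mpped1 (0.95). These are the highest correlations among all named genes tested (14278), over arrays that share groups and slides.

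Genes around the cluster moved in both directions in ko against wt. Of 24 tested genes with a probe within 500 kb, 3 rose and 5 fell in ko (median -0.03), against 11.5% and 13.8% of all genes. In RUNX1-ERt2 against ERt2, 0 rose and 3 fell (1 and 6 unadjusted, median -0.16), against 10.2% and 8.87% of all genes. The nearest gene before the cluster, Unc45b, a myosin chaperone 8.6 kb away, rose by 1.70 ± 0.21 in ko (adjusted p = 0.000721), and Fndc8, 51.5 kb before it, rose by 2.56 ± 0.37 (0.00157). The nearest after it, AI662270 at 9.6 kb, fell by 0.53 ± 0.12 (0.0143), as did Wfdc18 by 2.04 ± 0.33 (0.00276), AA465934 by 0.86 ± 0.15 (0.00428) and the chemokine Ccl9 by 0.92 ± 0.18 (0.00614). In RUNX1-ERt2, Ccl9 fell by 2.16 ± 0.25 (0.000428), 1700020L24Rik by 2.10 ± 0.36 (0.00352) and the ubiquitin ligase Rffl by 0.72 ± 0.16 (0.0143), while Unc45b and AI662270 stood at 0.43 ± 0.29 (0.371) and 0.13 ± 0.17 (0.663).

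**Figure D4:**
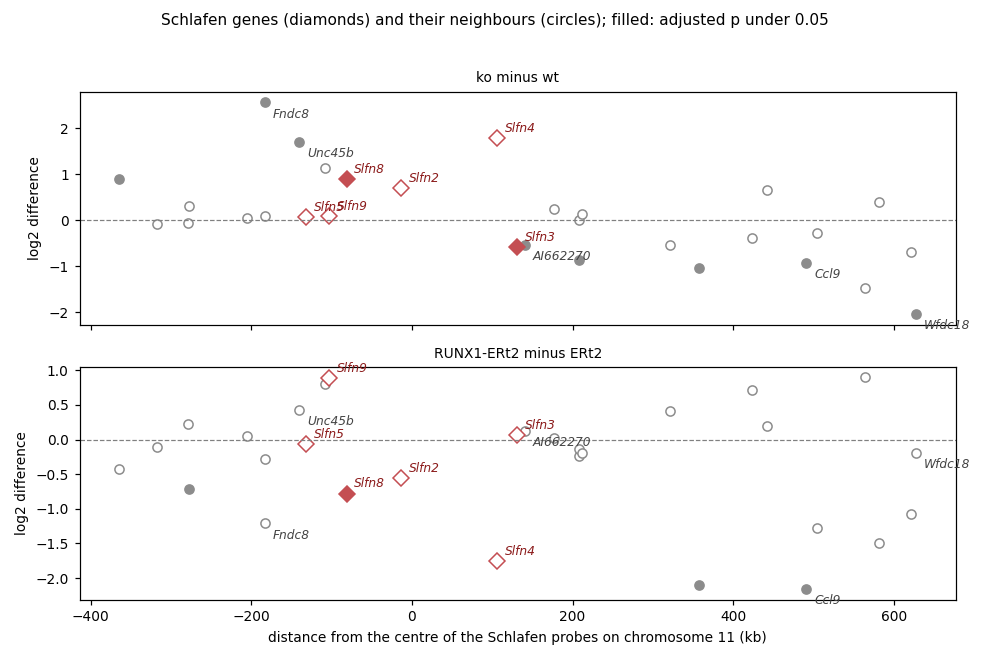
Differences (vertical axis, log2) of the 6 tested Schlafen genes (diamonds) and the 24 tested neighbours (circles) by distance from the centre of the Schlafen probes on chromosome 11 (kb), in ko minus wt (upper panel) and RUNX1-ERt2 minus ERt2 (lower panel); filled symbols have an adjusted p under 0.05. Symbols above and below 0 lie side by side along the cluster, with Slfn8 at 0.89 and Slfn3 at -0.58 in the upper panel.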

How the data were processed

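Per the file headers, the deposited spot intensity is Agilent processed signal, background-subtracted and detrended by Feature Extraction 10.7.3.1 (the submitters' processing notes name 9.1), with no scaling between arrays. The authors' series matrix, deposited as a ratio to the array median as found from the values, served as an alternative; its wt and ko columns matched another replicate of their group (1 with 3, 2 with 4).

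Control and outlier spots were left out, spots of a probe averaged, and log2 signal taken minus the 75th percentile of the array. A probe entered the test if all arrays of 1 or more groups had it well above background, and a gene by its brightest tested probe. One fit in limma 3.58.1 (R 4.3.3; checked on simulated data) held group means and a slide term over 12 arrays (7 residual and 2.11 prior degrees of freedom; Benjamini-Hochberg over 17905 genes). Probe coordinates are mm9, names and promoters RefSeq GRCm38.p6.

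Members and lists (interferon response, interferon signalling, quiescence, cell cycle, cell type markers, neighbours within 500 kb) were chosen with earlier results of these data known. From each list, up to 3 genes with the smallest p past the threshold per comparison were named, of the neighbours up to 4 and the nearest on each side, and for each member the 2 genes most like it. Same-numbered wt and ko replicates deviated together from their group means (r = 0.18 to 0.67). Differently numbered ones of slide 1 did so too (0.45 and 0.32), and those of slide 2 stood at -0.06 and 0.21. The numbers thus need not mark pairs. Blocked values, from fits with no slide term, stand beside results whose call they change.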

Additional observations from a re-analysis of the deposited data

Results flagged for a closer look

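The Slfn9 level on ko replicate 4, 0.88 for probe A_55_P2110537, stood apart from the other 3 ko arrays (0.20 to 0.32): its gap to the nearest was 0.84 of the range of the group, above Dixon's critical value at the 95% level. It was the only value so marked in the 20 sets of 4 arrays checked (10 probes, in wt and ko), and chance alone marks about 1 set in 20. The wt replicate 4, on the same slide, was also the highest of its group, at 1.20.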

How the results depend on the processing

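Alternatives were normexp, quantile normalization, the array median, no filter on dim probes, the series matrix, only the arrays compared, probes well above background throughout, a replicate block, the mean of probes, no slide term and each array left out; the block with ERt2 and RUNX1-ERt2 numbers crossed was added after seeing the data. Differences of single members in ko minus wt were also fitted on slide 1 and on slide 2 alone. Over the differences of single members in all these fits, 469 kept direction and call, 65 lost it, 18 gained it and 8 turned sign. The cause was not tested. The numbers of members called are small, 1 higher and 1 lower in ko minus wt, 0 and 1 in RUNX1-ERt2 minus ERt2, 2 and 3 in ERt2 minus ko, 1 and 1 in RUNX1-ERt2 minus wt. With an array left out they ranged over 1 to 2 and 0 to 1, 0 to 1 and 0 to 1, 0 to 2 and 1 to 3, and 0 to 2 and 0 to 1. In ko minus wt none was lower (0) in the series matrix. In RUNX1-ERt2 minus ERt2, 1 was higher with only the arrays compared, and 0 lower without the slide term or with the mean of probes. In ERt2 minus ko, 1 was higher without the slide term or with only the arrays compared, and 1 lower with normexp, the array median, the series matrix, no filter or no slide term. In RUNX1-ERt2 minus wt, 0 were higher with normexp, no filter or no slide term, and 0 lower with these, the array median, the series matrix or only the arrays compared.

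The replicate block gave 2 higher and 1 lower in ko minus wt, 1 and 2 in RUNX1-ERt2 minus ERt2, and 2 lower in RUNX1-ERt2 minus wt. The ERt2 and RUNX1-ERt2 replicates correlated at -0.19 with their own numbers, and the crossed replicate block gave 3 higher and 1 lower in ko minus wt, 1 and 1 in RUNX1-ERt2 minus ERt2, 3 and 3 in ERt2 minus ko, and 2 and 2 in RUNX1-ERt2 minus wt. The block changed no call of a member other than those given for Slfn2, Slfn4, Slfn8 and Slfn9.

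The sign turned for Slfn9 in ko minus wt without wt replicate 2 (-0.06), wt replicate 3 (-0.09) or ko replicate 4 (-0.01) and on slide 2 alone (-0.12; -0.09 to 0.34 with an array left out), for Slfn3 in RUNX1-ERt2 minus ERt2 in the series matrix (-0.01) and without ERt2 replicate 1 (-0.15) or RUNX1-ERt2 replicate 1 (-0.05; range -0.15 to 0.30), and for Slfn5 there without ERt2 replicate 2 (0.03; range -0.17 to 0.03); none of these differences passed the test. Signal over background limits Slfn1, Slfn4 in wt and the second Slfn5 probe, and 2 arrays in each transplanted group limit the rest.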
